A study of Mus musculus with 6 samples.

Results

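The 34 genes described here encode the enzymes of glycolysis, the proteins that carry glucose and lactate across the cell membrane, and the machinery and target genes of the response to low oxygen. They were taken by symbol from a table of read counts for 24062 gene symbols, measured in plaque of the aortic arch of atherosclerotic mice. All 34 symbols were in the table, and 33 had enough reads to be tested among 15222 genes. The exception was Eno1, an enolase, with 1 to 6 reads per library.

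Glycolysis splits glucose into pyruvate in the cytosol, and lactate dehydrogenase turns pyruvate into lactate when it does not enter the mitochondria. Cells sense oxygen through prolyl hydroxylases (the EGLN proteins), which mark the alpha subunits of the hypoxia-inducible factors (HIF) for destruction while oxygen is present. When oxygen is short the alpha subunits escape, pair with ARNT and bind a short DNA element near genes of glycolysis, blood vessel growth, mitochondrial turnover and collagen maturation. Thick plaques are known to hold poorly oxygenated zones, and activated macrophages are known for high glycolysis.

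Both groups were C57BL/6 mice that carried the same gene knockout, a background in which lesions form on a fat-rich diet. Their feed was the high-fat TD88137 over 12 weeks, followed by 3 weeks on a diet labelled LFD (low-fat diet). One group of 3 libraries came from mice given ABT263 (navitoclax, which blocks survival proteins of the BCL-2 family and is used as a senolytic). Intraperitoneal doses of 100 mg/kg, 1 each day, were given in week 1 of LFD. The other group of 3 libraries came from mice given vehicle. The labels give neither age nor sex, do not say for how many days doses were given, and do not say whether each library came from 1 mouse. The p-values therefore measure the spread between these libraries, which may in part be technical.

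Each library held 62930547 to 110452098 reads in total. Levels are given as CPM (counts relative to the depth of the library), scaled between libraries by the trimmed mean of M-values (TMM). All 9 contractile smooth muscle markers and all 10 macrophage markers were detected in every library. The libraries differed in other cell types, and the differences touch several results below. All 8 white adipocyte markers were highest in ABT263 replicate 2, where they summed to 3321 CPM. The same sum was 72.4 to 118 CPM with vehicle and 81.8 and 225 CPM in ABT263 replicates 1 and 3, where Lep (leptin) had 0 reads. In replicate 3 Plin4 made up 215 of the 225 CPM, while Adipoq stood at 0.351 and Plin1 at 0.112 CPM. All 4 brown adipocyte markers were also highest in ABT263 replicate 2, at a sum of 363 CPM against 0.754 to 2.69 CPM elsewhere. So were all 9 contractile smooth muscle markers and 5 of 6 adventitial fibroblast markers. Cardiac muscle markers summed to 62.4 CPM there and to 4.24 to 14.5 CPM elsewhere. All 7 endothelial markers were lowest in vehicle replicate 2, at a sum of 484 CPM against 1792 to 5049.9 CPM in the other 5 libraries. Erythroid markers, mainly Alas2, summed to 715 to 1002 CPM with vehicle and to 3284, 1909 and 150.2 CPM in ABT263 replicates 1 to 3. The globin symbols Hbb-bs and Hbb-bt had 0 reads in every library. Macrophage markers summed to 7782 to 15121 CPM with vehicle and 3645 to 7602 CPM with ABT263, without overlap. Of the 10 markers, Cd68, Cd14, Mrc1 and Lgals3 overlapped between the groups on their own. T cell, B cell, neutrophil and chondrocyte sums were also lower in every ABT263 library than in any vehicle library. With vehicle those sums were 130 to 162, 20.6 to 75.1, 114.3 to 271 and 1433 to 2424 CPM, in that order. With ABT263 they were 27.5 to 112, 4.45 to 13.4, 45.4 to 113.3 and 679 to 1207 CPM. On their own, Cd4 and Cd8a of the T cell markers overlapped between the groups. So did S100a8, S100a9, Ngp and Mpo of the neutrophil markers. Of the chondrocyte markers Acan, Col9a1, Comp, Lect1 and Matn3 overlapped, and Comp was highest in ABT263 replicate 3 (367 CPM). In bulk RNA, fewer cells of a type and less RNA per cell cannot be told apart.

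**Figure D1:**
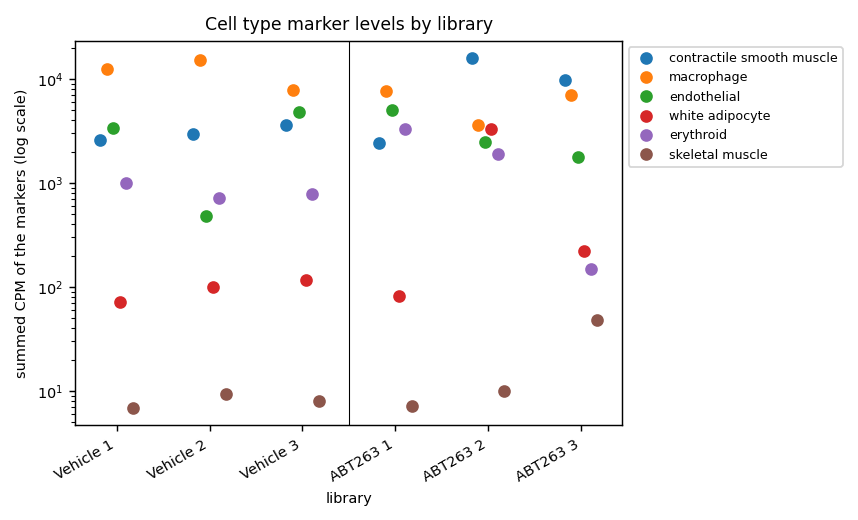
Summed CPM (log scale) of 6 sets of cell type markers in each of the 6 libraries, vehicle left of the line and ABT263 right of it, 1 point per set and library. White adipocyte markers stand at 3321 CPM in ABT263 replicate 2 and at no more than 225 CPM elsewhere, and endothelial markers are lowest in vehicle replicate 2.

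The comparison of ABT263 with vehicle asks how plaque differs after treatment with a senolytic, and none of the 33 tested members differed past the threshold. The quasi-likelihood test of edgeR called 0 of the 33 tested members and 0% of all 15222 genes (adjusted p under 0.05), with 0.592 as the lowest adjusted value of any member. DESeq2 called 0 members as well, against 1.05% of the genes it tested (165), and limma-voom called 0 members and 0% of genes. At an unadjusted p under 0.05 edgeR listed 4 members (Pfkm, Egln3, Vegfa and Adm), or 12.1% of 33, where 8.38% of all genes (1276) reached it. That count ran from 0 to 7 members when 1 library was left out, where 4.23% to 12% of all genes reached it. The 7 came without ABT263 replicate 1, the fit with the 12%. Of the 33, 21 had a positive log2 fold change (ABT263 over vehicle) and 12 a negative one, with a median of 0.10 against 0.00080 over all genes tested. The median was 0.021 without ABT263 replicate 1 and 0.24 without vehicle replicate 2. The 4 members with the largest fold changes were Adm, Egln3, Vegfa and Bnip3, all positive and all parts of the hypoxia response.

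In 7 members every ABT263 library stood above every vehicle library: Pfkl, Pfkm, Egln1, Egln3, Adm, P4ha2 and Ero1l. They make up 21.2% of the 33, where 12% of all genes tested did not overlap between the groups in either direction and 5.68% did so on the higher side. No member stood apart on the lower side. With library totals in place of TMM, 8 members and 12.6% of all genes stood apart, 8.58% on the higher side. With size factors of the DESeq2 type P4ha2 and Ero1l overlapped, which left 5, with 11.9% of all genes apart and 5.18% on the higher side. Without vehicle replicate 2 the count was 18 (14 higher and 4 lower) with 28.2% of all genes standing apart. Without ABT263 replicate 2 it was 11, with 17.4%. The share of all genes is larger there because fewer libraries are left to overlap.

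**Figure D2:**
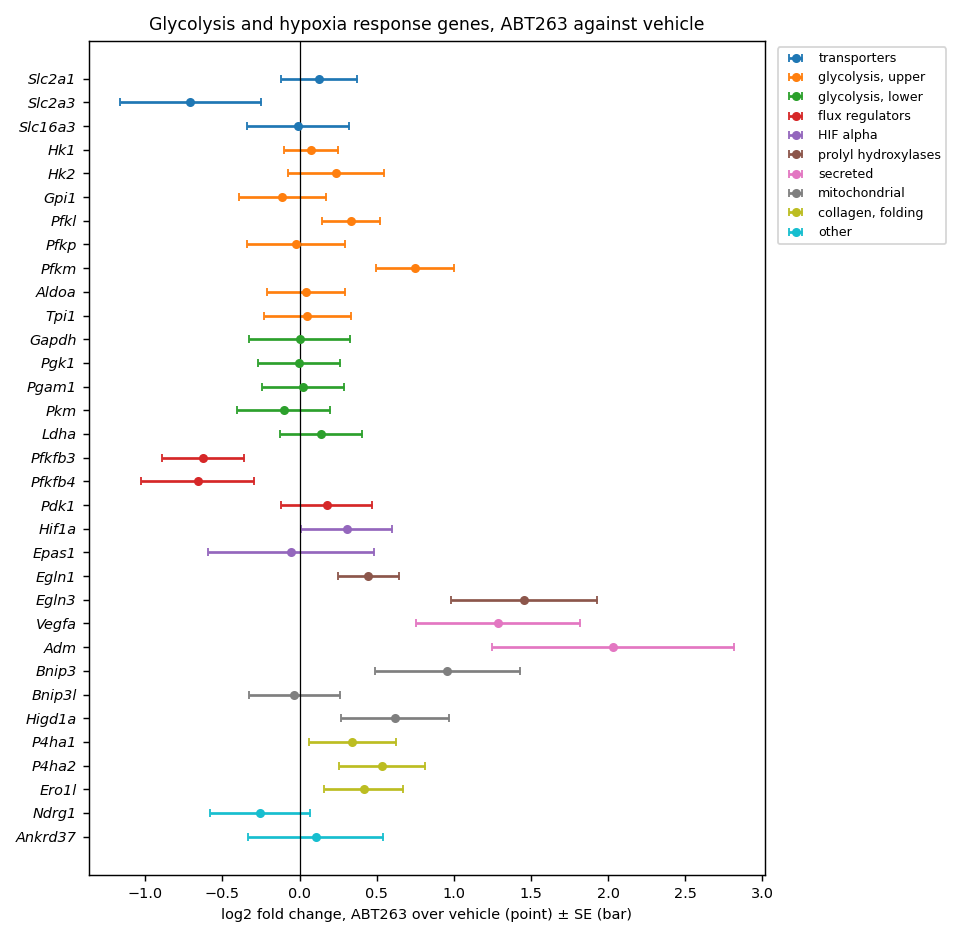
Log2 fold change (ABT263 over vehicle, points) with its standard error (bars) from the edgeR fit for the 33 tested members, coloured by role, n = 3 libraries per group. The enzymes from Gapdh to Ldha lie near 0, and Adm, Egln3, Vegfa and Bnip3 lie farthest to the right, with the widest bars on Adm.

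**Figure D3:**
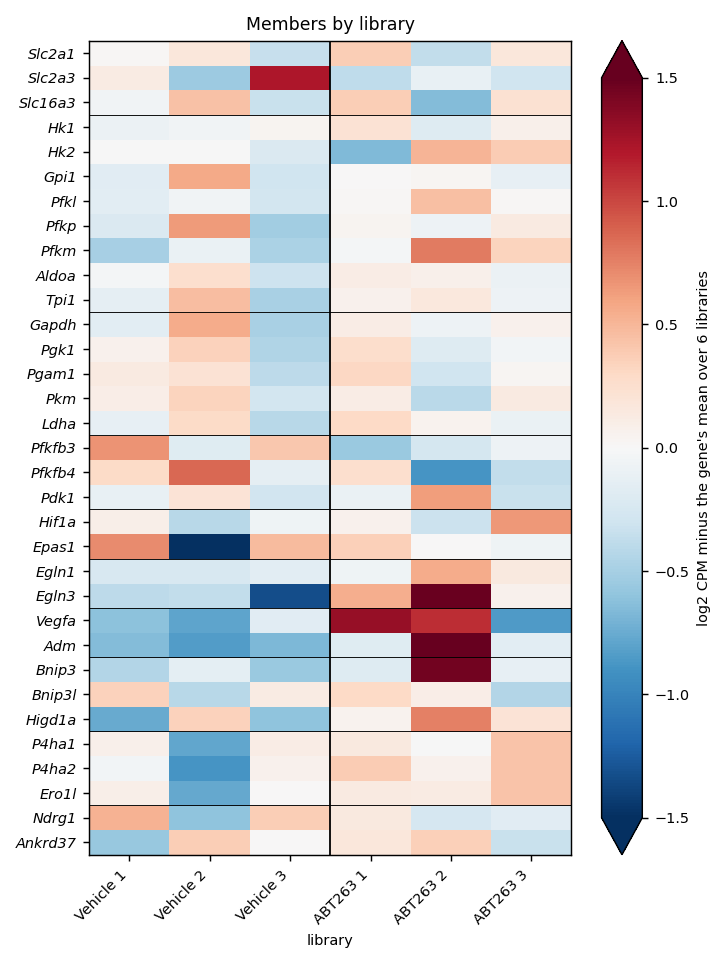
Level of each tested member in each library, as log2 CPM minus that gene's mean over the 6 libraries, with the colour scale limited to 1.5 in either direction and lines between roles. Most glycolytic enzymes are highest in vehicle replicate 2 and lowest in vehicle replicate 3, and several hypoxia response genes are highest in ABT263 replicate 2.

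Most core enzymes of glycolysis had nearly equal group means and varied more between the vehicle libraries than between the groups, with Pfkm, Pfkl and Hk2 as exceptions. Over the 13 tested enzymes from hexokinase to lactate dehydrogenase the median log2 fold change was 0.044, with 8 positive and 5 negative. Gapdh, glyceraldehyde-3-phosphate dehydrogenase, stood at 727, 1194 and 581 CPM in vehicle replicates 1 to 3 and at 879, 770.02 and 852 CPM in ABT263 replicates 1 to 3. The highest and the lowest of the 6 were both vehicle libraries, and the log2 fold change was -0.00036 (SE 0.33). Pkm, pyruvate kinase of muscle and most non-liver tissues, had 1087, 1286 and 838 CPM in the vehicle libraries and 1097, 770.4 and 1121 CPM in the ABT263 libraries. Its groups overlapped as well (log2 fold change -0.10, SE 0.30).

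The same order of libraries recurred along the pathway. Of the 13 enzymes, 7 were highest in vehicle replicate 2 and 9 were lowest in vehicle replicate 3, where 30% of all genes tested were highest in vehicle replicate 2 and 11.8% lowest in vehicle replicate 3. Aldoa, aldolase A, which cleaves fructose bisphosphate, had 718, 869.5 and 589.6 CPM in the vehicle libraries and 788, 769.6 and 687 CPM in the ABT263 libraries. Ldha, which makes lactate, had 433, 575 and 354 CPM under vehicle against 577, 486 and 438 CPM under ABT263 (log2 fold change 0.14, SE 0.27). For both genes the 3 ABT263 libraries lay inside the vehicle range or within 2 CPM of it. Tpi1 (triose phosphate isomerase) had a log2 fold change of 0.05, Gpi1 (glucose-6-phosphate isomerase) -0.11, Pgk1 (phosphoglycerate kinase) -0.0013 and Pgam1 (phosphoglycerate mutase) 0.024. Their standard errors ran from 0.27 to 0.28, so each value was smaller than its error.

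The sign of several of these values turned without vehicle replicate 2. In that fit Gapdh was 0.35, Gpi1 0.20 and Pfkp 0.39 on the log2 scale, and none passed (smallest adjusted p over the members 0.626). That library had the highest macrophage marker sum (15121 CPM) and the lowest endothelial sum. The ribosomal RNA precursor Rn45s was highest there too, at 17866 CPM against 2839 to 5836 CPM in the other 5 libraries, and it was lower in every ABT263 library than in any vehicle library. The part of these in the enzyme levels was not tested.

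Eno1, alpha-enolase (chromosome 4, 150236721 to 150248879, mm10), is a major enzyme of the pathway, yet had 2, 6 and 1 reads with vehicle and 5, 2 and 4 with ABT263. That is 0.0146 to 0.0561 CPM, near the limit that 3 reads set (0.0278 to 0.0480 CPM), while the enzymes on either side of it in the pathway stood at more than 170 CPM. Of the 2495 stretches of 50 bases in its coding transcripts, 57.2% also occur in transcripts of other annotated genes, above all in Eno1b, a retrogene copy. Eno1b itself, 85.2% of whose stretches occur elsewhere, had 142 to 480 reads per library. How the authors' counting treated reads that match several genes is not given. Gapdh, with 78.3% of its stretches found in other genes, still had 581 to 1194 CPM. Pgk1, with 68%, had 172 to 298 CPM. The cause of the low Eno1 count was not tested, and the row is not taken as a measure of Eno1 expression.

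Other members share sequence too, with copies or with genes whose exons overlap theirs. For Pfkp every shared stretch (16.3%) was in Pitrm1, which overlaps it on the opposite strand. The share of 50-base stretches found in other genes was 78.3% for Gapdh, 68% for Pgk1, 59.1% for Bnip3, 41.5% for Pgam1, 36.3% for Pkm and at most 25.4% for the rest. For 13 of the 34 members, among them Egln1, Egln3, Adm, Pfkm and P4ha2, no stretch was shared. The levels of the genes with large shares are uncertain.

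Enzymes that exist in several forms allow a comparison of levels per length. The values below are CPM per kilobase of coding-transcript exons, and shares are of the summed level of the family within a library, so they do not depend on the scaling between libraries. Among hexokinases, which trap glucose in the cell, Hk3 of the myeloid lineage led, followed by the widely expressed Hk1 and the insulin-responsive Hk2. Hk3, no member of the set, held 85.0, 85.4 and 77.0% of the family with vehicle and 76.3, 53.4 and 71.0% with ABT263. Its lowest share was in ABT263 replicate 2, the library with the lowest macrophage marker sum (3645 CPM).

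Hk1 had 80.7, 82.5 and 87.7 CPM in the vehicle libraries and 99.6, 74.5 and 90.1 CPM in the ABT263 libraries. The groups overlapped, and the log2 fold change of 0.074 (SE 0.17) was among the most precise of the set. Hk2 had 35.6, 35.7 and 30.7 CPM under vehicle against 22.5, 50.9 and 46.7 CPM under ABT263, with ABT263 replicate 1 the lowest and replicates 2 and 3 the highest of all libraries. The log2 fold change of Hk2 was 0.23 (SE 0.31). It was 0.52 without ABT263 replicate 1, 0.03 without replicate 2 and 0.11 without replicate 3.

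Phosphofructokinase commits glucose to glycolysis and has a platelet-type (Pfkp), a liver-type (Pfkl) and a muscle-type (Pfkm) form. Pfkm (chromosome 15, 98092589 to 98132451) had 24.8, 32.6 and 25.2 CPM in the vehicle libraries and 34.2, 60.1 and 44.3 CPM in the ABT263 libraries. Every ABT263 library was above every vehicle library, with a gap of 1.62 CPM between the groups and replicate 2 the highest. The log2 fold change was 0.75 (SE 0.25, adjusted p = 0.592 by edgeR and 0.256 by DESeq2), and it was 0.52 without ABT263 replicate 2.

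Pfkl had 63.6, 68.2 and 58.4 CPM in the vehicle libraries and 71.5, 96.5 and 71.7 CPM in the ABT263 libraries, also without overlap (log2 fold change 0.33, SE 0.19). Without ABT263 replicate 2 it was 0.18. Pfkp overlapped, at 102, 184 and 82.6 CPM against 122, 112 and 129.8 CPM (log2 fold change -0.022). Per kilobase Pfkp led the family in every library. The share of Pfkm was 16.8, 15.1 and 19.4% with vehicle and 19.3, 27.8 and 23.0% with ABT263, so the vehicle replicate 3 share exceeded that of ABT263 replicate 1. Contractile smooth muscle markers, which include no glycolytic gene, summed to 2622, 2982 and 3618 CPM with vehicle and 2414, 15851 and 9795 CPM with ABT263. Pfkm was likewise highest in ABT263 replicates 2 and 3. The part of smooth muscle content in its level was not tested.

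**Figure D4:**
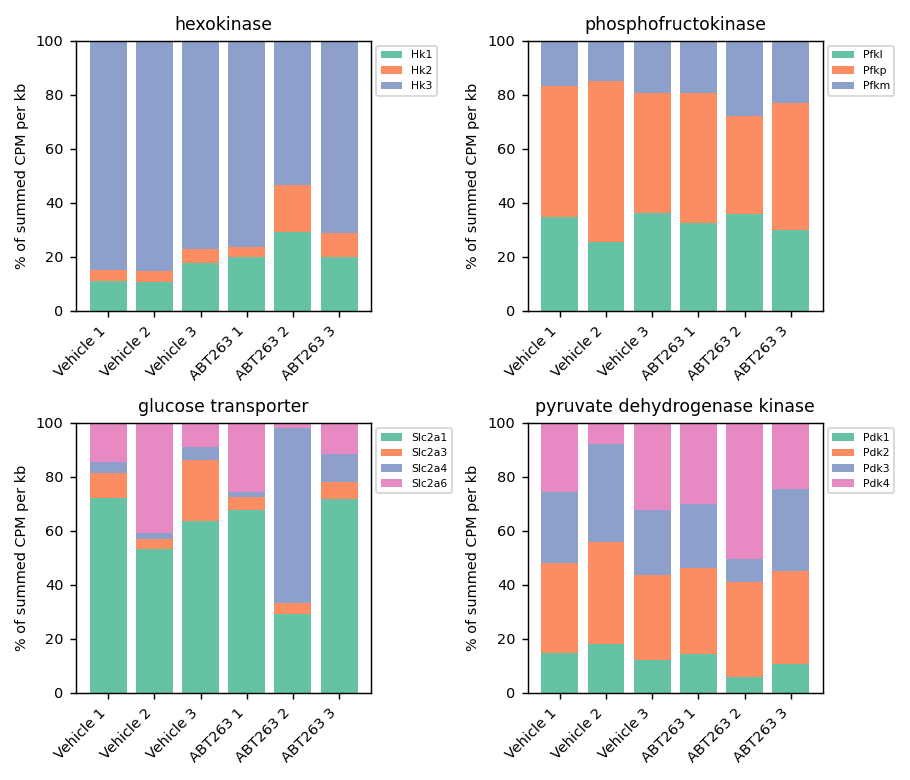
Share of each form in the summed level (CPM per kilobase) of 4 families in each library, as stacked bars that add to 100%. Hk3 holds most of the hexokinase level in every library, and Slc2a4 leads the glucose transporters in ABT263 replicate 2 alone.

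The glucose and lactate transporters showed no difference beyond the spread between libraries. Slc2a1 (GLUT1), the basal glucose transporter and a HIF target, had 54.2, 60.1 and 42.2 CPM in the vehicle libraries and 69.1, 41.5 and 60.4 CPM in the ABT263 libraries. The highest and the lowest value were both in ABT263 libraries (log2 fold change 0.13, SE 0.24). Slc16a3 (MCT4), which exports lactate, had 20.9, 29.5 and 17.1 CPM under vehicle against 28.0, 13.8 and 25.4 CPM under ABT263 (log2 fold change -0.0088, SE 0.33). It was lowest in ABT263 replicate 2, and without that library the value was 0.25.

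Slc2a3 (GLUT3), a high-affinity glucose transporter, had the most negative log2 fold change of the set, -0.71 (SE 0.46). Its levels were 8.37, 5.27 and 17.9 CPM with vehicle and 5.92, 7.16 and 6.24 CPM with ABT263. Vehicle replicate 3 was the highest library, and without it the value was -0.086. Per kilobase Slc2a1 led the 4 glucose transporters compared in 5 libraries, with 53.3% to 72.3% of the summed level. In ABT263 replicate 2 the insulin-responsive GLUT4 gene Slc2a4 led with 65%, against 29.1% for Slc2a1. That is the library with white adipocyte markers at 3321 CPM.

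Among the regulators of flux, both PFKFB genes had negative fold changes. Pfkfb3 makes fructose-2,6-bisphosphate, the strongest activator of phosphofructokinase, and stood at 209, 115 and 172 CPM in the vehicle libraries and 89.0, 108 and 124 CPM in the ABT263 libraries. Vehicle replicates 1 and 3 were above all ABT263 libraries, and vehicle replicate 2 lay between them. The log2 fold change was -0.63 (SE 0.27, unadjusted p = 0.0548, adjusted p = 0.596 by edgeR), and it stayed negative in all 12 alternative analyses.

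Pfkfb4, a related enzyme of the same metabolite, had 51.9, 77.7 and 38.8 CPM under vehicle against 50.6, 23.0 and 32.9 CPM under ABT263 (log2 fold change -0.66, SE 0.37). Leaving out vehicle replicate 2 gave -0.35, and leaving out ABT263 replicate 2 gave -0.42. Pdk1, the HIF-induced kinase that keeps pyruvate out of the mitochondria, had 19.5, 24.3 and 17.3 CPM in the vehicle libraries and 19.7, 32.7 and 16.8 CPM in the ABT263 libraries. It overlapped, with its highest level in ABT263 replicate 2 (log2 fold change 0.18, SE 0.29, or -0.16 without that library). Per kilobase Pdk1 held 6.06% to 18.1% of the 4 pyruvate dehydrogenase kinases.

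The transcripts of the HIF alpha subunits did not separate the groups. These proteins are known to be controlled mainly through their stability. Hif1a, found in most cell types, had 137, 96.3 and 123 CPM in the vehicle libraries and 135, 103 and 203 CPM in the ABT263 libraries (log2 fold change 0.31, SE 0.29). Only ABT263 replicate 3 exceeded the vehicle range. Epas1 encodes HIF-2 alpha, a subunit prominent in endothelium, and had 773, 168 and 657 CPM in the vehicle libraries and 608, 476 and 454 CPM in the ABT263 libraries (log2 fold change -0.054, SE 0.54). Vehicle replicate 2 was at less than 40% of any other library, the same library in which all 7 endothelial markers were lowest. Without it Epas1 was -0.48, with the ABT263 libraries all below the remaining vehicle libraries. The part of endothelial content was not tested. Per kilobase Epas1 exceeded Hif1a in every library, holding 63.2% to 84.8% of the HIF alpha level.

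Of the oxygen-sensing prolyl hydroxylases, Egln1 and Egln3 were higher in every ABT263 library than in any vehicle library, though neither passed the threshold. Egln3 (PHD3; chromosome 12, 54178981 to 54203860) is itself a HIF target and feeds back on the pathway. It stood at 3.34, 3.38 and 1.74 CPM in vehicle replicates 1 to 3 and 6.41, 12.2 and 4.57 CPM in ABT263 replicates 1 to 3, a gap of 1.20 CPM between the groups. The group means were 2.82 ± 0.936 and 7.74 ± 4.01 CPM (SD, n = 3 each), the log2 fold change was 1.46 (SE 0.47) and the adjusted p by edgeR was 0.592, by DESeq2 0.11. Without ABT263 replicate 2, the highest library, the log2 fold change was 0.96.

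Egln1 (PHD2; chromosome 8, 124908587 to 124949324), the main oxygen sensor, stood at 54.9, 54.6 and 58.1 CPM with vehicle, within 4 CPM of each other, and at 61.9, 94.9 and 71.5 CPM with ABT263. The log2 fold change was 0.45 (SE 0.20, adjusted p = 0.601 by edgeR), or 0.26 without ABT263 replicate 2. Contractile smooth muscle markers had the same order as Egln1 in the ABT263 libraries (2414, 15851 and 9795 CPM), and summed to 2622, 2982 and 3618 CPM with vehicle. ABT263 replicate 1 thus had the lowest smooth muscle sum of all libraries, yet Egln1 and Egln3 were higher there than in any vehicle library. Egln3 had another order in the ABT263 libraries, at 6.41, 12.2 and 4.57 CPM. White adipocyte markers were highest in ABT263 replicate 2, where Egln1 and Egln3 were highest. The part of smooth muscle or white adipocyte content in these levels was not tested. Egln2, another prolyl hydroxylase that is not in the set, overlapped between the groups, at 62.8, 73.3 and 62.0 CPM under vehicle against 75.5, 78.0 and 60.6 CPM under ABT263 (log2 fold change 0.11, SE 0.17). Per kilobase Egln1 came second to Egln2 in every library, and Egln3 was lowest, at 1.45% to 2.79% of the 3 genes with vehicle and 3.50% to 6.93% with ABT263. Both vehicle and ABT263 libraries kept the order Egln2, Egln1, Egln3.

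**Figure D5:**
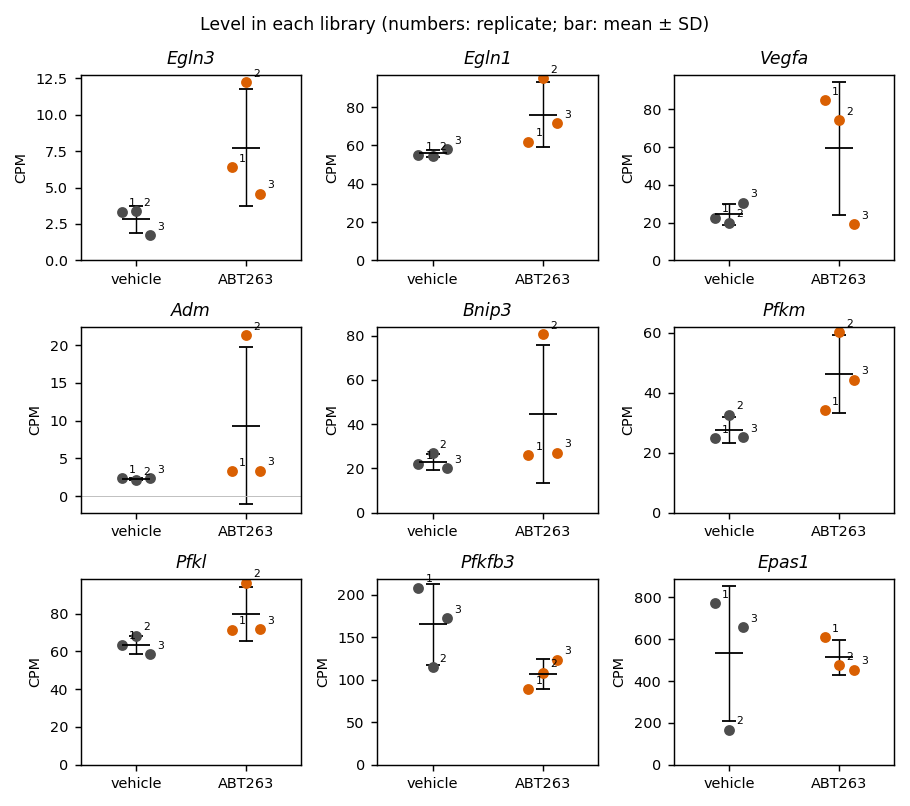
CPM of 9 members in each library (points, numbered by replicate) with the group mean and SD (black), n = 3 per group. Egln3, Egln1, Adm, Pfkm and Pfkl do not overlap between the groups, Vegfa is high in ABT263 replicates 1 and 2 only, and Adm and Bnip3 are high in ABT263 replicate 2 only.

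Both secreted peptides had positive fold changes that rested on different libraries. Vegfa, the growth factor of blood vessels (chromosome 17, 46016993 to 46032369), had 22.5, 19.9 and 30.6 CPM in the vehicle libraries and 84.8, 74.1 and 19.0 CPM in the ABT263 libraries. Replicates 1 and 2 were more than 2 times above the highest vehicle library, while replicate 3 was below the lowest. The log2 fold change was 1.29 (SE 0.53, adjusted p = 0.592 by edgeR and 0.281 by DESeq2). It was 0.93 without ABT263 replicate 1 and 1.71 without ABT263 replicate 3. The erythroid markers followed the same order in the ABT263 libraries, at 3284, 1909 and 150.2 CPM, and endothelial markers did as well, at 5049.9, 2478 and 1792 CPM. In vehicle replicates 1 to 3 the endothelial sum was 3397, 484 and 4873 CPM and the erythroid sum 1002, 715 and 786 CPM. Vehicle replicate 3 thus had an endothelial sum near that of ABT263 replicate 1, with Vegfa at 30.6 against 84.8 CPM. The part of endothelial and erythroid content in the Vegfa level was not tested.

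Adm, which encodes the vasodilator adrenomedullin (chromosome 7, 110627661 to 110629820), had 2.38, 2.10 and 2.35 CPM in the vehicle libraries and 3.31, 21.3 and 3.37 CPM in the ABT263 libraries. ABT263 replicates 1 and 3 were about 1 CPM above the vehicle libraries, and replicate 2 accounted for most of the log2 fold change of 2.03 (SE 0.78, adjusted p = 0.592 by edgeR). Without replicate 2 it was 0.55, with the groups still apart. White and brown adipocyte markers were high in that library alone. The cardiac muscle sum was highest there, as were 3 of the 5 cardiac muscle markers and 5 of 6 adventitial fibroblast markers. The part of these in the Adm level was not tested.

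Bnip3 and Bnip3l encode related receptors that mark mitochondria for removal. Bnip3 had 21.8, 26.8 and 20.1 CPM in the vehicle libraries and 25.8, 80.7 and 27.1 CPM in the ABT263 libraries, so that replicate 2 stood alone and replicate 1 lay inside the vehicle range. Its log2 fold change was 0.96 (SE 0.47), or 0.21 without ABT263 replicate 2. That is the library with high white and brown adipocyte markers, whose part in the Bnip3 level was not tested. Bnip3l had 316, 187 and 273 CPM under vehicle against 308, 267 and 184 CPM under ABT263 (log2 fold change -0.034, SE 0.30), and per kilobase it exceeded Bnip3 in every library. Higd1a, a small mitochondrial protein, had 25.7, 54.8 and 28.6 CPM in the vehicle libraries and 44.8, 72.9 and 49.7 CPM in the ABT263 libraries. Vehicle replicate 2 lay among the ABT263 libraries, and without it the groups stood apart at a log2 fold change of 1.04, against 0.62 (SE 0.35) with it.

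The 3 genes of collagen maturation and protein folding had like profiles, lowest in vehicle replicate 2 and highest in ABT263 replicate 3. P4ha1 and P4ha2 encode alpha subunits of the prolyl 4-hydroxylase that stabilises collagen. P4ha1 had 122, 67.3 and 125 CPM in the vehicle libraries and 128, 115 and 155 CPM in the ABT263 libraries. P4ha2 had 39.4, 21.9 and 42.3 CPM under vehicle against 52.8, 42.6 and 54.8 CPM under ABT263. Ero1l (now Ero1a), the oxidase that forms disulphide bonds in the endoplasmic reticulum, had 51.4, 28.5 and 48.5 CPM in the vehicle libraries and 53.3, 52.6 and 65.2 CPM in the ABT263 libraries. P4ha2 and Ero1l did not overlap, by margins of only 0.270 and 1.23 CPM. The log2 fold changes were 0.34 (SE 0.28) for P4ha1, 0.54 (SE 0.28) for P4ha2 and 0.42 (SE 0.26) for Ero1l. Without vehicle replicate 2 they were 0.10, 0.29 and 0.19. Endothelial markers were lowest in vehicle replicate 2 as well, and 29.8% of all genes tested had their lowest level there. In ABT263 replicate 3, where these 3 genes were highest, the endothelial sum was 1792 CPM. It was 5049.9 and 2478 CPM in ABT263 replicates 1 and 2, and 3397 and 4873 CPM in vehicle replicates 1 and 3. The part of endothelial content in the levels of the 3 genes was not tested.

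The last 2 members are widely used as hypoxia reporters. Ndrg1, a stress-responsive gene of differentiation, had 292, 134 and 262 CPM in the vehicle libraries and 225, 171 and 181 CPM in the ABT263 libraries (log2 fold change -0.25, SE 0.32). Like Epas1 it was lowest in vehicle replicate 2, and without that library all ABT263 values lay below the vehicle values. Ankrd37, an ankyrin-repeat protein, had only 0.656, 1.25 and 0.980 CPM under vehicle against 1.10, 1.25 and 0.771 CPM under ABT263, the lowest level of the tested members (log2 fold change 0.10, SE 0.44). Its exons overlap those of Lrp2bp and Ufsp2 on the opposite strand, and the libraries do not mark strand, so its count is uncertain. The same limit holds for other members with exons that overlap a gene on the opposite strand. Among them are Pfkm (Senp1), Pfkp (Pitrm1), Hif1a (Gm15283), Gapdh (Iffo1), Bnip3 (Gm45507), Higd1a (Gm47112) and Ndrg1 (Gm17035 and Gm2895).

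HIF binds the core letters ACGTG or GCGTG. RefSeq promoters (GRCm38.p6, the assembly of mm10; 250 bases before to 50 after a gene's start) were at hand for 30 of the 34 members. On either strand 28 of the 30 held at least 1 of these cores, or 93.3%, where 64.5% of 11307 tested genes with a promoter and 46.7% of all 27025 genes in the table did. A gene with several annotated starts counted if any of them held a core. Counted per start, the share was 81.4% of 43 for the members. It was 58.9% of 14340 for the tested genes and 43.8% of 32851 for all genes. Many members were chosen as known HIF targets, and a match describes the letters and shows no binding. ACGTG is also part of CACGTG, the E-box letters of other factors. The promoters of 3 members with a large positive fold change (Egln3, Adm and Bnip3) and of 2 with a small one (Pgk1 and Ldha) are printed 5′ to 3′ on the gene's strand, to set the letters beside the measured differences. Capitals mark each core on either strand, which reads CACGT or CACGC where it lies on the other strand.
Egln3 (chr12:54203825-54204124, minus strand): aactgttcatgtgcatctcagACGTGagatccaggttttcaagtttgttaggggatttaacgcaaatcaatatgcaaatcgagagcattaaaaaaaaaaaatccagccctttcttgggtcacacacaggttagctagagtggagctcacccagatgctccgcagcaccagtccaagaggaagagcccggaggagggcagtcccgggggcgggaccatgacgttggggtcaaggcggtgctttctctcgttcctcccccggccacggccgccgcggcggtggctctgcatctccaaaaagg
Adm (chr7:110627407-110627706, plus strand): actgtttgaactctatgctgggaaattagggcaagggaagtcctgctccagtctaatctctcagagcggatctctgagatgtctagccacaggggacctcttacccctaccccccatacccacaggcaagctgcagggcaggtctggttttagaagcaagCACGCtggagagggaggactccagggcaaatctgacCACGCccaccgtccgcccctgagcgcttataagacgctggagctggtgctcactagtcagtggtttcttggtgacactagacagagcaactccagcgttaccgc
Bnip3 (chr7:138909457-138909756, minus strand): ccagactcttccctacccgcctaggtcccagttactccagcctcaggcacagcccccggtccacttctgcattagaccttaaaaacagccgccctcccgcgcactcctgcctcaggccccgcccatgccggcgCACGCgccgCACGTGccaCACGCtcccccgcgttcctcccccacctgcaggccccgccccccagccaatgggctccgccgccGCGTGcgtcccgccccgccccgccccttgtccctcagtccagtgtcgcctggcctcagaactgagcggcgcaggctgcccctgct
Pgk1 (chrX:106186850-106187149, plus strand): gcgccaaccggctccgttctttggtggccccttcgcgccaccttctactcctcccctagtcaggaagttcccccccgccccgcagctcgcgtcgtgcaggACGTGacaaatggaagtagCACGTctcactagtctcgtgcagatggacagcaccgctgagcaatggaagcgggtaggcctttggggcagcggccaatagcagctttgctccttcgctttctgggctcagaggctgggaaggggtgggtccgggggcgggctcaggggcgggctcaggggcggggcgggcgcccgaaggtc
Ldha (chr7:46845554-46845853, plus strand): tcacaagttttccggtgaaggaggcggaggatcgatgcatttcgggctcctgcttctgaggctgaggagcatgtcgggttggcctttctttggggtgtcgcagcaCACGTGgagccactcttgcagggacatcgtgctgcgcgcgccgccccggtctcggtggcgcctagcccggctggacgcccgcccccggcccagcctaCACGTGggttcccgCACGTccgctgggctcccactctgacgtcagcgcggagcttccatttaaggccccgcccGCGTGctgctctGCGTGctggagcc

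The Egln3 promoter held 1 core, Adm 2, Bnip3 5, Pgk1 2 and this start of Ldha 7, while their log2 fold changes were 1.46, 2.03, 0.96, -0.0013 and 0.14. These counts take CACGTG as 2 cores, 1 on each strand, which applies to 1 stretch of Bnip3 and 2 of Ldha. Vegfa, also among the members with the largest fold changes, held 0 cores at 1 annotated start and 2 at the other. Gpi1 and Tpi1 held none in this window, which says nothing of sites farther away. Egln1 held 2 cores, P4ha2 4 and Ero1l 3.

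Other genes of the pathways were given from lists beside the members, and edgeR called none of their 75 tested genes. Of 23 tested genes of glucose metabolism outside the set, 14 were positive and 9 negative (median log2 fold change 0.10), and 10 of them were highest in ABT263 replicate 2, as were 24.9% of all genes tested. Slc2a4 (GLUT4, of fat and muscle) had 2.54, 1.98 and 2.91 CPM in the vehicle libraries and 1.85, 79.6 and 7.41 CPM in the ABT263 libraries. Its log2 fold change of 3.58 (SE 1.30; adjusted p = 0.592 by edgeR, 0.0476 by DESeq2, which called it) was 0.91 without ABT263 replicate 2. Pdk4, the kinase that spares glucose during fasting, was 1.96 (SE 0.92) and 0.42 without that library. Hk3 had -0.998 (SE 0.43), at 437, 458 and 264 CPM with vehicle and 265, 94.0 and 221 CPM with ABT263. The highest ABT263 library (replicate 1) exceeded the lowest vehicle library by about 1 CPM. Hk3 was -0.66 without ABT263 replicate 2.

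The 13 further regulators of HIF had the narrowest range of the 4 lists, with log2 fold changes from -0.48 to 0.19 and a median of 0.021. Arnt2, a partner of the alpha subunits, had -0.48 (SE 0.36). Cul2, part of the ligase that destroys HIF, had 0.18 (SE 0.15), and Cited2, which competes with HIF for its coactivator, had -0.21 (SE 0.20). Cul2 was the 1 gene of the 13 whose groups did not overlap. That is 7.69%, where 12% of all genes tested did not overlap and 5.68% did so on the higher side.

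Of 31 tested hypoxia response genes outside the set, 19 were positive and 12 negative, with a median of 0.11. Of the 31, 4 stood apart on the higher side (12.9%) and 0 on the lower side. Among all genes tested, 12% stood apart in either direction and 5.68% on the higher side. Ak4, an adenylate kinase of mitochondria induced by HIF, had 1.68, 2.28 and 2.08 CPM in the vehicle libraries and 3.50, 6.17 and 6.23 CPM in the ABT263 libraries. All ABT263 libraries were above all vehicle libraries, and the log2 fold change was 1.39 (SE 0.35, adjusted p = 0.592 by edgeR). DESeq2 called it, at an adjusted p of 0.0239, and the value without ABT263 replicate 2 was 1.27. Errfi1, an inhibitor of EGF receptor signalling, had 21.0, 28.5 and 24.5 CPM under vehicle against 37.6, 69.1 and 47.6 CPM under ABT263, also without overlap. Its fitted log2 ratio was 1.06 (SE 0.26), at an adjusted p of 0.592 by edgeR and 0.0639 by DESeq2. Ppp1r3c, a glycogen-targeting subunit, had 1.65 (SE 0.67), or 0.55 without ABT263 replicate 2. It had its highest level in that library.

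The pentose phosphate pathway, which draws glucose-6-phosphate away from glycolysis to make NADPH and ribose, had 4 positive and 4 negative genes of 8 (median -0.076). Rpe (ribulose-phosphate epimerase) had 0.30 (SE 0.17), H6pd (the enzyme of the endoplasmic reticulum) 0.50 (SE 0.31) and Taldo1 (transaldolase) -0.28 (SE 0.22). All 3 had groups that overlapped.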

How the data were processed

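RNA of 6 aortic arch plaque samples (3 vehicle, 3 ABT263) had been extracted with the RNeasy Micro kit and sequenced from TruSeq RNA v2 libraries, which do not mark strand, per the labels' protocols. The authors deposited raw counts, whole reads per gene symbol, in 1 column per sample. Per the submitters' processing notes, the build was mm10 and the tools named, without roles, were featureCounts 1.4.6, Subread, Bowtie2 2.2.6 and TopHat2 2.0.14. Not given in the sources used here are the annotation, the strand setting and the rule for reads that match several genes.

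Groups came from sample titles, and replicate numbers only name samples. No 2 libraries of a group were identical or agreed within sampling noise. In R 4.3.3, genes passing edgeR's filterByExpr (minimum count 10, minimum total 15) were scaled by TMM and fitted with the quasi-likelihood test of edgeR 4.0.16 on group alone, with Benjamini-Hochberg adjustment over all 15222 genes. Each SE was taken as the size of the log2 fold change over the root of its F statistic. The procedure was tested on simulated data. DESeq2 1.42.0, limma-voom (limma 3.58.1), other scalings, no filter and left-out libraries were run beside it. Positions, exon lengths (basic coding transcripts) and shared 50-base stretches came from GENCODE M21 (GRCm38), promoters from RefSeq. A limit of 3 reads covers counting error only. The members and lists were chosen with earlier results of these data known. All members are described, and of each further list the 3 genes of smallest p. For Tigar the table's older symbol was used. The gene knocked out in all mice is not reported here.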

Additional observations from a re-analysis of the deposited data

How the results depend on the processing

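No gene was called under any of the 10 alternative settings of edgeR or by limma-voom, and DESeq2 called 165 genes, none a member. The count of members apart between the groups ran from 7 to 18 over the fits that left out 1 library, where 17.4% to 31.3% of all genes stood apart, and was 23 without both replicates 2, where 38.9% of all genes stood apart. The members' median log2 fold change ran from 0.021 to 0.24 over those fits, was 0.25 without both replicates 2 and 0.20 with library totals alone, a scaling that moved the median of all genes to 0.092. The sign held in all 12 alternatives for 16 of 33 members and turned in at least 1 for 17, all with a main log2 fold change within 0.31 of 0. With limma-voom Pfkp was 0.094, Gapdh 0.091, Pgk1 0.029 and Epas1 0.12. With library totals alone Slc16a3 was 0.075, Pfkp 0.065, Gapdh 0.090, Pgk1 0.094, Epas1 0.048 and Bnip3l 0.072. Without both replicates 2 Slc16a3 was 0.49, Gpi1 0.18, Pfkp 0.44, Gapdh 0.40, Pgk1 0.29, Pkm 0.20, Slc2a1 0.425, Pgam1 0.28, Ldha 0.37, Cited2 0.011 and Pdk1 -0.016. Over the fits that left out 1 library, the ranges were -0.093 to 0.19 for Aldoa, -0.11 to 0.34 for Ankrd37, -0.22 to 0.15 for Bnip3l, -0.34 to -0.072 for Cited2, -0.48 to 0.31 for Epas1, -0.21 to 0.35 for Gapdh, -0.28 to 0.20 for Gpi1, -0.0016 to 0.51 for Hif1a, -0.027 to 0.18 for Hk1, -0.020 to 0.34 for Ldha, -0.16 to 0.36 for Pdk1, -0.25 to 0.39 for Pfkp, -0.15 to 0.17 for Pgam1, -0.20 to 0.19 for Pgk1, -0.26 to 0.056 for Pkm, -0.21 to 0.25 for Slc16a3, -0.038 to 0.32 for Slc2a1 and -0.15 to 0.35 for Tpi1. The cause of these turns was not tested. No paired analysis was possible because the labels give the groups no shared replicate numbers. With 3 libraries per group, a member that did not pass is not shown to be equal between the groups.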
